A study of Triticum aestivum with 24 samples.

Results

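Metal storage and transport in wheat leaves was followed through 3 genes, a ferritin on chromosome 4A (TraesCS4A01G180700.2), a copper-transporting ATPase on 6A (TraesCS6A01G158900.1) and PLANT CADMIUM RESISTANCE 2, hereafter PCR2, on 1B (TraesCS1B01G418800.1). The transcripts were taken by ID and were chosen by their measured response to heat. Ferritin was selected on its high level against control directly after heat, and the ATPase and PCR2 on their low level 1 day later. The count table held 4 isoforms of these 3 genes among 137056 transcripts of 110790 genes. A filter on low counts kept 54517 transcripts of 47179 genes, among them 3 of the 4 isoforms. The isoform that did not pass was TraesCS4A01G180700.1 of ferritin.

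The libraries came from leaves of Triticum aestivum cv Chinese Spring, a bread wheat cultivar, and all plants descended from a single selfed individual. Of 144 plants, 72 spent 5 days at 37 °C from the boot stage, when the ear is still inside the leaf sheath, and were watered against drought. The other 72 remained at 18 °C during 16 h of light and 16 °C during 8 h of darkness, to which the heated plants then returned. Leaves were sampled when the heat ended (0 DAT, days after treatment) and at 1 and 4 DAT, which gave 6 groups, control and heat at each time, with 4 replicate libraries each. Per the study's methods, each replicate pooled 18 plants for the small RNA and degradome libraries, and the labels of the RNA-seq libraries carry the same groups and replicate numbers. Use of the same pools for RNA-seq is therefore an inference from the labels.

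Ferritin forms a protein shell that stores iron in a form that cannot feed the production of oxygen radicals, and in plants it is found mainly in plastids. Copper-transporting ATPases are membrane pumps that use ATP to move copper, which plastocyanin and copper-zinc superoxide dismutases need. PLANT CADMIUM RESISTANCE proteins are small cysteine-rich membrane proteins, and in Arabidopsis PCR2 is known as a zinc exporter that also lowers sensitivity to cadmium. All 3 transcripts are listed as microRNA targets in the study's degradome table, in which cleaved transcript ends were sequenced. A microRNA pairs with its target and guides its cleavage, and bases 2 to 8 from its 5′ end are its seed.

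The paired sequences below are shown because they are what the 3 transcripts were listed for. They are copied from the study's table of targets and written 5′ to 3′, as DNA letters. Capitals mark the microRNA seed and the target bases that face it.
miR528-1.2-5p: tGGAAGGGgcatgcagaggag
ATPase site on 6A: ctcctctgcagcCCCTTCCg
miR1135-2157-5p: tTCCGAATtacttgtcgcaga
ferritin site on 4A: cctgcgacaagtaATTCGGAa
miR1136-235-3p: aGTTCTAGatacatccatt
second ferritin site on 4A: aatggatgtatTTAGAACt
miR1135-1765-5p: gGAATTACttgtcgcggaaat
PCR2 site on 1B: atttccgcgacaaGTAATTCc
miR1136-597-3p: cGAGACAAgtaattccgaacggag
second PCR2 site on 1B: ctccgttcggaattacTTGTCTCg

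The ATPase was paired with miR528-1.2-5p alone, with 19 Watson-Crick pairs, 1 G:U pair and 1 gap over 21 aligned columns. The paper names copper-zinc superoxide dismutase and L-ascorbate oxidase as selected targets of this microRNA, and their sites were not looked up here. The same microRNA was also paired with blue copper proteins, which carry a copper ion for electron transfer, on 7B (TraesCS7B01G080800.1) and 7D (TraesCS7D01G177000.1). Both had the site ctcttctgcatgcCGCCTTCt, with 16 Watson-Crick and 2 G:U pairs. Ferritin was paired with 7 microRNAs. Sites of 6 of them overlapped in a run of 20 or more bases, and 3 of the 7 microRNAs shared the seed TCGGAAT. This seed is not fully complementary to the site bases that face it. The ferritin pairing shown with miR1135-2157-5p had 20 Watson-Crick pairs over 21 columns, and the ferritin pairings over 24 columns had 18 or 19. PCR2 was paired with 3 microRNAs, each with a seed of its own, and its pairing with miR1136-597-3p had 24 Watson-Crick pairs over 24 columns. The first ferritin site and the first PCR2 site shared a run of 14 bases, gcgacaagtaattc. The 2 PCR2 sites shared the run gacaagtaattcc, of 13 bases, in reverse complement. These are descriptions of sequences, and cleavage was not measured in the RNA-seq libraries.

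Total estimated counts per library were 5403461 to 16112270. TMM factors, which correct each library for its composition, had a mean of 1.35 in heat 0 DAT and of 0.924 to 1.01 in the other groups. The transcript TraesCS1A01G000100.1 held over 1% of the counts in 4 libraries, with 6.95% in heat 1 DAT replicate 3. Of the leaf markers, the Rubisco small chain (TraesCS5B01G162800.1) had 974 CPM (estimated counts per 1000000 of the TMM-scaled library total) or more in each of the 24 libraries. A PsbP family protein of photosystem II had 7.52 CPM or more and cytochrome b6-f subunit 4 had 6.98 CPM or more. The listed carbonic anhydrase (TraesCS1A01G443500.1) stood at 0.0952 CPM or below. The mean of the Rubisco small chain at 0 DAT was 5000 ± 1510 CPM in control against 1850 ± 635 CPM after heat (SD, n = 4), a log2 fold change of -1.44 with an adjusted p of 0.023 in edgeR. The PsbP protein (TraesCS5A01G109600.1) was higher in heat at 0 DAT (0.58, adjusted p of 0.023) and at 1 DAT (0.76, adjusted p of 0.009), and cytochrome b6-f subunit 4 (TraesCSU01G269500.1) was higher at 1 DAT (2.03, adjusted p of 0.0069). At 4 DAT none of these 3 markers passed the test. The part of these markers in the results was not tested.

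Ferritin was high directly after heat, the contrast that chose it, and was higher than control at 1 DAT, while its difference at 4 DAT did not pass the test. At 0 DAT the 4 control libraries had 1.59, 1.68, 3.15 and 2.01 CPM and the 4 heat libraries 8.20, 9.71, 10.2 and 8.02 CPM, in the order of replicates 1 to 4. All heat libraries lay above all control libraries, as they did for 16% of the transcripts tested, and this is the contrast that chose the gene. Its means were 2.11 ± 0.717 and 9.03 ± 1.08 CPM (SD, n = 4), and the fitted log2 fold change was 2.09 ± 0.26 (SE). With total-count scaling in place of TMM it was 2.63, on a scale that moved the median log2 fold change of all transcripts from 0.03 to 0.54. In bulk leaf RNA, fewer cells of a type and less RNA per cell cannot be told apart.

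At 1 DAT the control libraries had 2.53, 3.02, 2.61 and 3.85 CPM of ferritin and the heat libraries 4.19, 3.59, 8.10 and 5.58 CPM. Of the heat libraries, 3 lay above every control, and replicate 2 lay within the control range. Ferritin rose in heat with a log2 fold change of 0.81 ± 0.26 (SE, 95% interval 0.28 to 1.34), with an adjusted p of 0.039 in edgeR's quasi-likelihood test. In this comparison 7.32% of all transcripts tested were called higher in heat. The spread behind this test came from all 24 libraries, among them those of 0 DAT that chose the gene. With the 1 DAT libraries alone the log2 fold change was 0.84 and the call was lost. In the fit of all libraries, the call was lost when any 1 of 5 was left out. Heat 1 DAT replicate 3 had the highest value and is also the library with 6.95% of its counts in one other transcript, and without it the log2 fold change was 0.57 with an adjusted p of 0.15. The adjusted p was 0.076 without heat replicate 4, 0.098 without control replicate 1, 0.08 without control replicate 2 and 0.079 without control replicate 3 of that time.

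At 4 DAT the control libraries had 2.38, 2.36, 3.41 and 2.34 CPM of ferritin and the heat libraries 3.48, 3.95, 2.85 and 4.95 CPM. The groups overlapped, although 3 of 4 heat libraries were above every control. The log2 fold change was 0.52 ± 0.26 (SE, 95% interval -0.03 to 1.06), with an adjusted p of 0.56 in edgeR, and 0.18% of transcripts were called in either direction at that time. The change of the heat effect from 1 to 4 DAT was -0.29 ± 0.37 on the log2 scale (SE, 95% interval -1.06 to 0.47, adjusted p of 0.82 in edgeR), where 1.86% of transcripts were called. Within heat, ferritin differed by -0.50 ± 0.26 between 1 and 4 DAT (adjusted p of 0.28, 6.89% called), and within control by -0.20 ± 0.26 (adjusted p of 1, 0 transcripts called and 2923 at an unadjusted p under 0.05). With DESeq2 in place of edgeR, 45 transcripts were called in the latter comparison.

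The group means of ferritin, from lowest to highest, were control 0 DAT, control 4 DAT, control 1 DAT, heat 4 DAT, heat 1 DAT and heat 0 DAT. Each group overlapped its neighbour in this order, including heat 1 DAT with heat 0 DAT, where 1 library at 8.10 CPM exceeded the lowest value of 8.02 CPM. The second isoform, TraesCS4A01G180700.1, was above 0 in 3 of 24 libraries, with at most 7.16 estimated counts. These were control 0 DAT replicate 2, heat 1 DAT replicate 4 and heat 4 DAT replicate 3, where the main isoform held 71.7%, 92.3% and 87.4% of the gene's counts. In the other libraries it held all of them. The mean share of the main isoform in heat and control was 98.1% and 100% at 1 DAT and 96.9% and 100% at 4 DAT. With 1 library per time away from 100%, a permutation test of the share could not distinguish the groups, so no test is given. The gene totals behind the shares were as low as 16.6 estimated counts. Summed over both isoforms, the heat effect at 1 DAT was 0.83 on the log2 scale (adjusted p of 0.018 in edgeR).

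**Figure D1:**
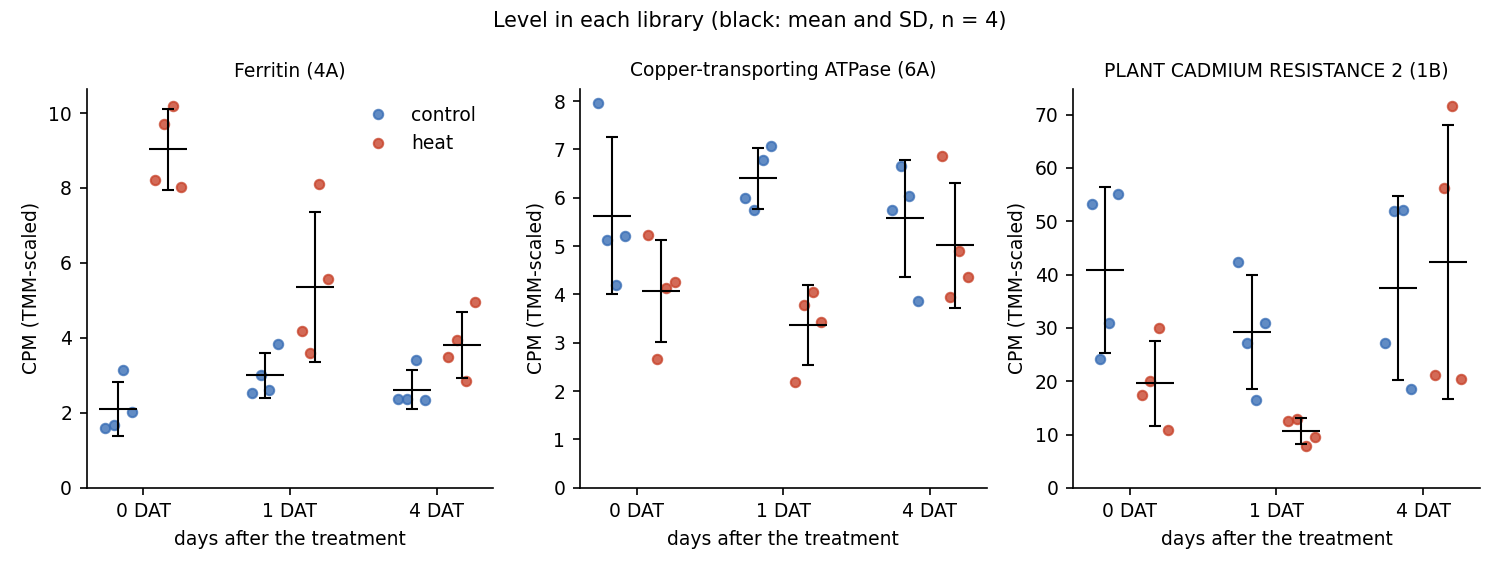
Level of ferritin, the copper-transporting ATPase and PCR2 in each library, in CPM on the vertical axis, with control in blue and heat in red at 0, 1 and 4 days after treatment. Points are libraries in the order of replicates 1 to 4 and black bars give the mean and SD (n = 4). Ferritin in heat goes from a mean of 9.03 CPM at 0 DAT to 3.81 CPM at 4 DAT, while heat lies below control for the ATPase and PCR2 at 1 DAT and overlaps with it at 4 DAT.

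The copper-transporting ATPase was low in heat at 1 DAT, the contrast that chose it, and passed no test at 0 or 4 DAT. At 1 DAT the control libraries had 6.00, 5.74, 6.79 and 7.07 CPM and the heat libraries 2.19, 3.79, 4.05 and 3.43 CPM. The groups did not overlap, which held with heat lower for 7.74% of transcripts. The means were 6.40 ± 0.631 and 3.36 ± 0.823 CPM (SD, n = 4), and the log2 fold change was -0.94 ± 0.25 (SE), given as a description.

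At 0 DAT, which had no part in the choice, the control libraries had 7.96, 5.12, 4.20 and 5.21 CPM of the ATPase and the heat libraries 5.22, 2.67, 4.13 and 4.26 CPM. The groups overlapped, with control replicate 1 above and heat replicate 2 below the rest. The log2 fold change was -0.46 ± 0.24 (SE, 95% interval -0.96 to 0.04), with an adjusted p of 0.17 in edgeR, against 13.3% of transcripts called lower. With total-count scaling it was 0.05, so its direction depends on how the heat libraries of 0 DAT are scaled.

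At 4 DAT the ATPase had 5.74, 6.66, 6.03 and 3.86 CPM in control and 6.86, 3.95, 4.89 and 4.36 CPM in heat. Each group had 1 library apart from its other 3, and the ranges covered each other. The log2 fold change was -0.14 ± 0.25 (SE, 95% interval -0.65 to 0.38, adjusted p of 0.95 in edgeR), and it was 0.18 without the 4 libraries rich in TraesCS1A01G000100.1. The heat effect differed by 0.33 ± 0.34 between 0 and 4 DAT (95% interval -0.39 to 1.04, adjusted p of 0.62), where 10.2% of transcripts were called. From 0 to 4 DAT the ATPase differed by 0.31 ± 0.24 within heat (adjusted p of 0.41, 20.6% called) and by -0.02 ± 0.24 within control (adjusted p of 1, 0.00917% called). The order of its group means from the lowest was heat 1, heat 0, heat 4, control 4, control 0 and control 1 DAT, and every group overlapped the next.

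A second transcript annotated as a copper-transporting ATPase, TraesCS7A01G239700.1 on 7A, went the other way at 1 DAT. Its control libraries had 10, 10.4, 15 and 9.40 CPM and its heat libraries 19.9, 15.6, 21.5 and 19.9 CPM, with no overlap, as for 8.65% of transcripts with heat higher. It rose by 0.78 ± 0.16 on the log2 scale (SE), with an adjusted p of 0.0021 in edgeR, and was called whichever of the 24 libraries was left out. At 0 DAT the log2 fold change was 0.18 ± 0.16 (adjusted p of 0.44) and at 4 DAT 0.42 ± 0.16 (adjusted p of 0.40). With total-count scaling the value at 0 DAT was 0.69 (adjusted p of 0.0039). Over the 24 libraries the log2 CPM of the 6A and 7A transcripts had a Pearson r of -0.67, and -0.48 after the group means were taken out, as a description of values that share their libraries and scaling.

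The 7A transcript was listed with other microRNAs than the 6A transcript, 4 of the miR1137 family and none of miR528. The pair with the most Watson-Crick pairs, 22 over 24 columns, is shown here for comparison with the miR528 site of 6A, again with the seed and the bases facing it in capitals.
miR1137-310-5p: aAATAGATgacccaactttgtact
ATPase site on 7A: agtataaagttgagtcATCTATTt

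**Figure D2:**
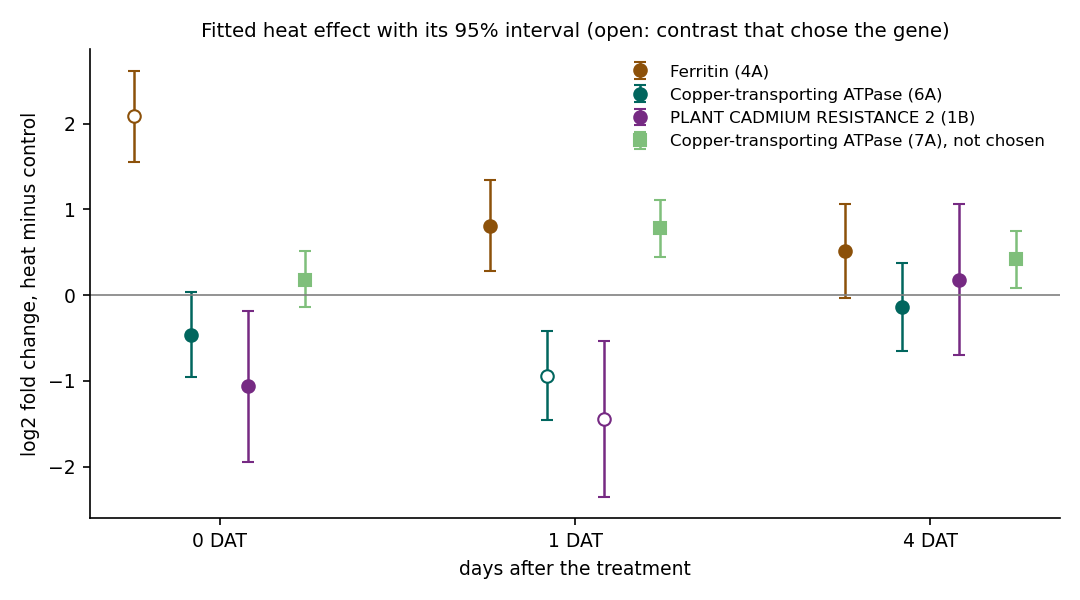
Fitted log2 fold change of heat against control (vertical axis) at 0, 1 and 4 days after treatment, for ferritin, the 6A and 7A copper-transporting ATPases and PCR2, with the 95% interval. Open circles are the contrasts that chose a gene and carry no test. At 1 DAT the 6A ATPase lies at -0.94 and the 7A ATPase at 0.78, and at 4 DAT all values lie between -0.14 and 0.52.

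PCR2 was the most variable of the 3 genes. Its SD within groups was 0.649 on the log2 CPM scale, against 0.336 for ferritin, 0.335 for the ATPase and a median of 0.45 over all transcripts tested. At 1 DAT the control libraries had 42.4, 27.1, 16.5 and 31.0 CPM and the heat libraries 12.5, 13.0, 7.92 and 9.44 CPM. Every heat library lay below every control, as for 7.74% of transcripts, and the log2 fold change was -1.44 ± 0.44 (SE), a description since this contrast chose the gene.

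At 0 DAT the control libraries had 53.2, 24.2, 31.0 and 55.1 CPM of PCR2 and the heat libraries 17.4, 20.1, 29.9 and 10.9 CPM. Of the heat libraries, 3 lay below every control, and replicate 3 lay among the controls. The log2 fold change was -1.06 ± 0.43 (SE, 95% interval -1.95 to -0.18), with an adjusted p of 0.075 in edgeR, so it did not pass the threshold. In this comparison 13.3% of transcripts were called lower. It passed narrowly with DESeq2, with edgeR's likelihood ratio test, with counts per gene and with the 0 DAT libraries alone, at adjusted p of 0.043 to 0.047. Under the other 5 of 9 alternative settings it did not pass, with an adjusted p of up to 0.41 in edgeR. The values over the 9 settings were -1.17 to -0.59. Without heat 0 DAT replicate 3 the value was -1.34 with an adjusted p of 0.045. This was the only 1 of 24 leave-outs that passed, and the adjusted p reached 0.2 in the others.

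At 4 DAT the replicates of PCR2 fell into a high and a low pair in both treatments. Control had 27.2, 52.0, 52.1 and 18.6 CPM and heat had 21.2, 56.3, 71.6 and 20.4 CPM, so that replicates 2 and 3 were high and replicates 1 and 4 low in each. This split was noticed after the values were seen and was not tested. At 0 DAT replicates 2 and 3 were the higher pair in heat, whereas replicates 1 and 4 were the higher pair in control. At 1 DAT the split was absent, since replicate 3 was the lowest library in control (16.5 CPM) and in heat (7.92 CPM). The log2 fold change at 4 DAT was 0.18 ± 0.42 (SE, 95% interval -0.70 to 1.06), with an adjusted p of 0.97 in edgeR. Its sign turned when control 4 DAT replicate 4 (-0.05) or heat 4 DAT replicate 3 (-0.21) was left out.

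The heat effect on PCR2 differed by 1.24 ± 0.60 on the log2 scale between 0 and 4 DAT (SE, adjusted p of 0.21 in edgeR), with an interval of 0 to 2.49. Within heat, PCR2 stood 1.12 ± 0.43 higher at 4 than at 0 DAT (95% interval 0.23 to 2.01), with an adjusted p of 0.069, which missed the threshold. In this comparison 20.6% of transcripts were called. The adjusted p was 0.044 without heat 0 DAT replicate 3, 0.038 without heat 4 DAT replicate 1 and 0.035 without heat 4 DAT replicate 4. These were the only 3 of 24 leave-outs that passed, and the adjusted p reached 0.26 in the others. Of 9 alternative settings 3 passed, with values of 0.65 to 1.25 over all 9 and an adjusted p of up to 0.36 in edgeR. Within control the difference was -0.12 ± 0.42 (adjusted p of 1). Its group means, from the lowest, were 10.7 CPM in heat 1 DAT, 19.6 in heat 0 DAT, 29.2 in control 1 DAT, 37.5 in control 4 DAT, 40.9 in control 0 DAT and 42.4 CPM in heat 4 DAT. Neighbouring groups overlapped throughout, and the groups at 4 DAT had SDs of 17.2 and 25.7 CPM.

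The transcripts whose log2 CPM followed PCR2 most closely over the 24 libraries were TraesCS1D01G398700.1 (Pearson r of 0.98), TraesCS1A01G390500.1 (0.97) and TraesCS1D01G392000.1 (0.95). With the group means taken out, r was still 0.98, 0.96 and 0.91, so these transcripts shared the spread between replicates. At 4 DAT, TraesCS1D01G398700.1 had 21.4, 53.1, 40.1 and 18.9 CPM in control and 19.3, 58.0, 75.4 and 22.6 CPM in heat, the same high and low replicates as PCR2. These transcripts carry no annotation in the sources used here, and whether they are copies of PCR2 on 1A and 1D is not stated there. No PCR2 value was a whole number, since reads that fit several transcripts are divided between them, and the part of shared reads in this likeness was not tested. The same held for every value of the main ferritin isoform and of the 6A ATPase. Of the annotated transcripts, a putative protein kinase on 3D (TraesCS3D01G002200.1) had r of 0.84, a 2-oxoglutarate and Fe(II)-dependent oxygenase on 2B (TraesCS2B01G413000.1) had 0.81, and a CC-NBS-LRR disease resistance protein on 3A (TraesCS3A01G325600.1) had 0.81.

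**Figure D3:**
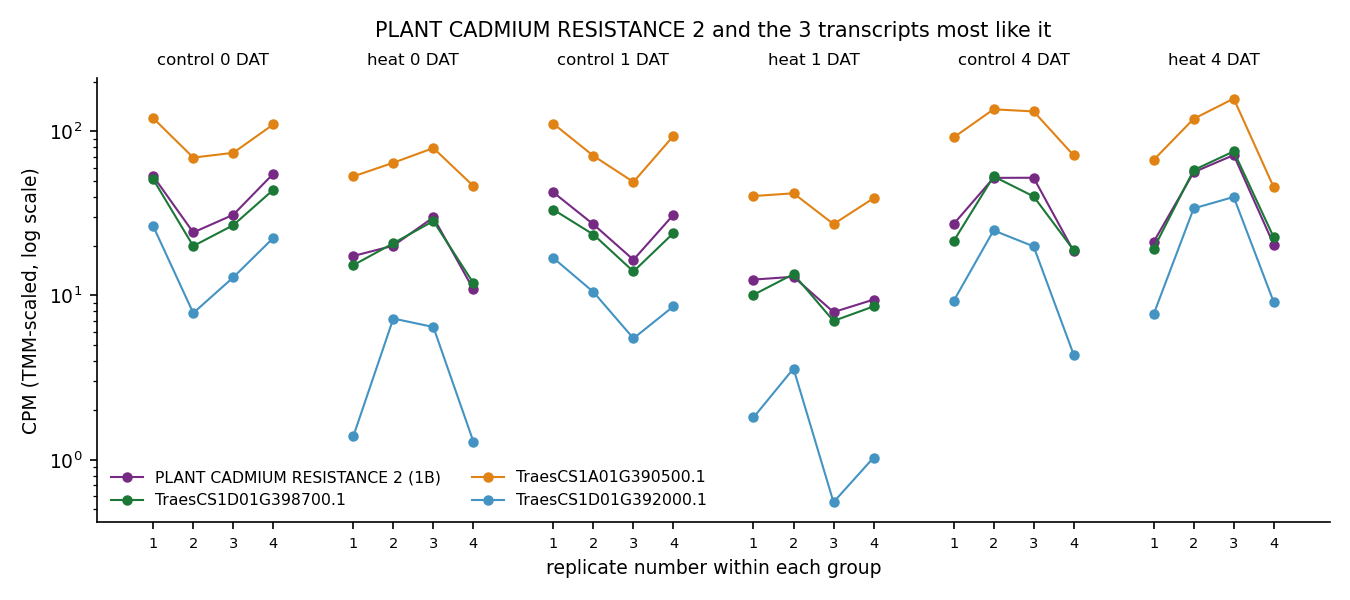
Level of PCR2 and the 3 transcripts most like it in each of the 24 libraries, in CPM on a logarithmic axis, with the replicate number on the horizontal axis within each group. Lines join the libraries of a group only to guide the eye. At 4 DAT replicates 2 and 3 are the high libraries of PCR2 in control (52.0 and 52.1 CPM) and in heat (56.3 and 71.6 CPM), and the other transcripts follow the same pattern.

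Ferritin was matched most closely by an NBS-LRR-like resistance protein on 3B (TraesCS3B01G554500.1, r of 0.92), whose mean was 0.595 CPM in control and 2.62 CPM in heat at 0 DAT. TraesCS2D01G276000.2 and TraesCS5D01G266000.1, without annotation here, had r of 0.91 each. The first of these had a mean of 6.23 CPM in control and 301 CPM in heat at 0 DAT, and 12.7 and 37.4 CPM at 4 DAT. After the group means were taken out r was 0.71, 0.37 and 0.33, so the latter 2 resembled ferritin mainly by their group means. Among annotated transcripts TraesCS6A01G172400.1, annotated as a branched-chain amino acid aminotransferase, had r of 0.85 and a Nudix hydrolase-like protein on 3A (TraesCS3A01G110300.1) had 0.82. Their r was 0.23 and 0.28 after the group means were taken out, so they too resembled ferritin mainly by their group means.

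For the 6A ATPase the closest transcripts were TraesCS5D01G489300.1 (r of 0.87), TraesCS7B01G128000.1 (0.86) and TraesCS5A01G069600.2 (0.85), none with annotation here. Of the annotated transcripts, which are all listed microRNA targets, the closest was a calcium-transporting ATPase on 1B (TraesCS1B01G324000.1, r of 0.81). A squamosa promoter binding-like protein on 3D (TraesCS3D01G425800.1) had 0.68 and a kinase with a bulb-type lectin domain on 4A (TraesCS4A01G487000.1) had 0.66. With the group means taken out, r of these annotated transcripts was 0.58, 0.51 and 0.44. Between the 3 genes, r was -0.52 for ferritin with PCR2, -0.52 for ferritin with the ATPase and 0.49 for PCR2 with the ATPase. With the group means taken out these were -0.15, -0.11 and 0.05. All these correlations are over 24 libraries that share scaling and, as inferred from the labels, plants, and carry no test.

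The wider metal-related list was a selection of 21 microRNA targets, 10 for copper, 7 for iron and 4 for other metals. Their annotations point to a metal, a metalloprotein or metal transport, but not every such target was included. The Fe(II)-dependent oxygenase on 2B (TraesCS2B01G413000.1), for example, was left out. The shares below therefore describe the selected transcripts only. Of the 21 transcripts 16 were tested, 13 besides the 3 genes above. At 0 DAT, 2 of the 13 were called higher and 1 lower, which is 23.1%, against 24.3% of all transcripts (11% higher and 13.3% lower). At 1 DAT, 1 was called higher and 2 lower, again 23.1%, against 13.5% (7.32% higher and 6.18% lower). At 4 DAT 0 of 13 were called in edgeR, with 1 at an unadjusted p under 0.05, and DESeq2 called 0. The median log2 fold change of the 13 was -0.07, 0.25 and -0.18 at the 3 times, beside 0.03, -0.04 and 0 for all transcripts.

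In the copper list, 8 of 10 transcripts were tested. A copper-zinc superoxide dismutase on 2B (TraesCS2B01G417000.1), which removes superoxide, rose at 0 DAT by 1.02 ± 0.24 on the log2 scale (SE, adjusted p of 0.0036 in edgeR), from a control mean of 5.31 ± 0.773 to 10.8 ± 1.74 CPM (SD, n = 4). A polyphenol oxidase on 3B (TraesCS3B01G355900.1), a copper enzyme that oxidizes phenolics, rose by 2.16 ± 0.52 (adjusted p of 0.0042), from 1.51 ± 0.59 to 6.84 ± 2.37 CPM. At 1 DAT the 7A ATPase was the only one of the 7 copper transcripts besides 6A that was called. The blue copper proteins on 7B and 7D, which shared miR528 with the 6A ATPase, were low, with means between 0.291 and 2.44 CPM, and did not pass the test at any time. A basic blue protein on 5D (TraesCS5D01G539200.1) and a superoxide dismutase on 2A (TraesCS2A01G399000.1) did not pass either, and a superoxide dismutase isoform on 2A (TraesCS2A01G121200.2) was too low to be tested.

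In the iron list, 4 of 7 transcripts were tested. A peroxidase on 6B (TraesCS6B01G063800.1), a heme enzyme, fell at 0 DAT by 2.31 on the log2 scale (SE 0.53, adjusted p of 0.0028 in edgeR), from a control mean of 4.39 ± 1.99 CPM to 0.888 ± 0.436 CPM (SD, n = 4). It fell at 1 DAT by 2.37 (SE 0.50, adjusted p of 0.0032), from 13.7 ± 9.5 to 2.60 ± 1.56 CPM. Of the other 2, a cytochrome b561 and DOMON domain protein on 4A (TraesCS4A01G044400.1) and the chloroplastic protein ABCI7 on 3B (TraesCS3B01G035600.1), which belongs to iron-sulfur cluster assembly, neither was called at any time. Peroxidases on 1B and 6D and a cysteine desulfurase on 3A stood at 0 in all 24 libraries, as did a blue copper protein on 4B of the copper list.

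In the list of other metals all 4 transcripts were tested. The calcium-transporting ATPase on 1B (TraesCS1B01G324000.1) fell at 1 DAT by 2.87 on the log2 scale (SE 0.67, adjusted p of 0.0064 in edgeR), from a control mean of 3.26 ± 1.24 CPM to 0.454 ± 0.309 CPM (SD, n = 4). Its heat libraries at 1 DAT held only 1 to 8 estimated counts each, so the size of this fall is poorly determined. A cadmium-induced protein AS8 on 2A (TraesCS2A01G253800.1) and a molybdenum cofactor sulfurase-like protein on 5A (TraesCS5A01G365100.1) were not called. Over the 3 lists, with ferritin, the 6A ATPase and PCR2 left aside, the transcripts that were not called had log2 fold changes of -1.34 to 1.72 at 0 DAT, -0.26 to 0.80 at 1 DAT and -1.61 to 0.42 at 4 DAT.

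**Figure D4:**
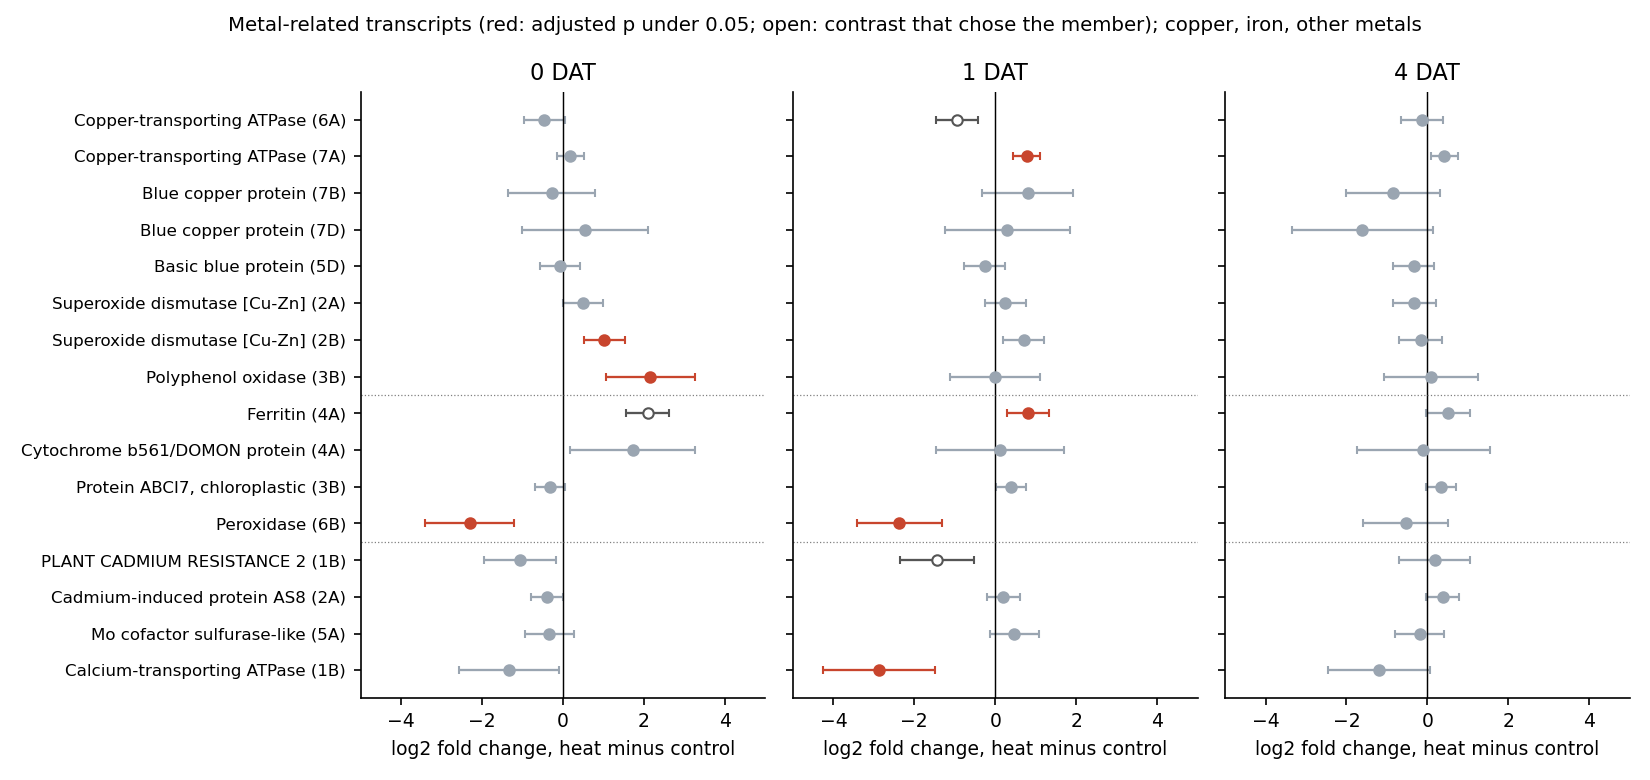
Log2 fold change of heat against control with its 95% interval (horizontal axis) for the 16 tested metal-related transcripts at 0, 1 and 4 days after treatment, in copper, iron and other metals from top to bottom. Red marks an adjusted p under 0.05 and open circles mark the contrast that chose a gene. Red points lie on both sides of 0 at 0 and at 1 DAT, and none is present at 4 DAT.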

How the data were processed

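RNA-seq of 24 leaf libraries was used. The authors deposited estimated counts per transcript, and the submitters' processing notes name Trimmomatic and kallisto without a version. Which transcriptome was indexed is not stated in what was used here. Of these values 38.8% were not whole, and they were rounded before testing. In hexaploid wheat, near-identical copies can share reads, so single-copy values are uncertain beyond the replicate spread.

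Counts were analysed with edgeR 4.0.16 in R 4.3.3 (filterByExpr with minimum count 10 and minimum total count 15, TMM factors), with all 24 libraries in 1 model of 6 group means. The groups shared 1 estimate of the spread, to which the libraries that chose a gene also contributed. Contrasts were tested by two-sided quasi-likelihood tests, adjusted by Benjamini-Hochberg over 54517 transcripts, and called at an adjusted p under 0.05. The SE is the absolute log2 fold change over the square root of F, and is approximate for small changes. DESeq2 1.42.0 and other settings were alternatives. A planned exact permutation test of the ferritin isoform share was void and is not reported. The study's methods give a likelihood ratio test in edgeR for microRNAs, and none was found there for these libraries.

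The members, lists and tests were chosen with earlier results of these data known. Named transcripts were the members and their isoforms, the tested metal-related transcripts and, per member, the 3 most correlated of all and of the annotated transcripts (log2 CPM, prior count 2). Annotation text came from a shortened copy of the study's target table, with 595 annotated transcripts, a selected set. The IWGSC CS RefSeq v2.1 gene table matched 0 IDs, so chromosomes are those in the IDs and no coordinates or lengths are given, and levels are not compared between genes. The labels give no sequencing batch. Replicate numbers were taken to mark pools of plants, which is an inference from the labels. Deviations from group means correlated at -0.259 to 0.154 for the same pool at 2 times (over 0.1 in 2 of 24 pairs), and at -0.008 to 0.235 for heat and control of the same number (over 0.1 in 5 of 12). P-values cover the spread between replicate libraries only.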

Additional observations from a re-analysis of the deposited data

Results flagged for a closer look

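Of 24 groups of 4 libraries examined (the 3 genes and the 7A copper-transporting ATPase in 6 groups), 1 had a library far from its others. Ferritin in control 4 DAT replicate 3 stood at 3.41 CPM, beside 2.34 to 2.38 CPM in the other 3 libraries, and the gap was 0.963 of the group's range. Chance flags about 1 in 20 such groups. Without this library the heat effect on ferritin at 4 DAT was 0.67 on the log2 scale, with an adjusted p of 0.55 in edgeR, so it still did not pass.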

How the results depend on the processing

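The call of ferritin at 1 DAT (log2 fold change 0.81) was lost with total-count scaling (0.80), with no filter on low counts (0.80), without the libraries rich in 1 transcript (0.59) and with only the libraries of that time (0.84), and held under the other 5 settings. Its description at 0 DAT moved to 2.63 with total-count scaling. The 6A ATPase turned sign with total-count scaling at 0 DAT (0.05), in the difference of the heat effect (-0.30) and in the changes within control (0.08) and within heat (-0.22), and at 4 DAT without the libraries rich in 1 transcript (0.18), none past the threshold. PCR2 at 0 DAT passed with the likelihood ratio test (-1.06), with only the libraries of that time (-1.05), with counts per gene (-1.07) and with DESeq2 (-1.05). It missed the threshold under the other 5 settings. Its change within heat from 0 to 4 DAT passed with the likelihood ratio test (1.12), with counts per gene (1.14) and with DESeq2 (1.12). That change missed the threshold under the other 6 settings. Its change within control was 0.01 with total-count scaling. Of the other metal-related transcripts, 6 in place of 3 were called at 0 DAT with total-count scaling. With that scaling 83.1% of all calls at 0 DAT were higher in heat, against 45.2% with TMM.

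Leaving out each library in turn gave log2 values, for ferritin, of 0.57 to 0.97 at 1 DAT, 0.37 to 0.67 at 4 DAT, -0.46 to -0.06 for the difference, -0.35 to -0.05 within control and -0.65 to -0.25 within heat. For the ATPase they were -0.60 to -0.24 at 0 DAT, -0.33 to -0.04 at 4 DAT, 0.10 to 0.48 for the difference, -0.12 to 0.21 within control and 0.12 to 0.46 within heat. For PCR2 they were -1.34 to -0.86 at 0 DAT, -0.21 to 0.41 at 4 DAT, 0.86 to 1.52 for the difference, -0.33 to 0.11 within control and 0.73 to 1.39 within heat.

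With the replicate block, ferritin stood at 0.78 at 1 DAT (adjusted p of 0.037 in edgeR), and with the block by pool PCR2 differed by 1.04 within heat between 4 and 0 DAT (adjusted p of 0.11). Neither block changed a call of the 3 genes. The 3 genes had 16.6 to 878 estimated counts per library, and the precision at this depth is that of the 95% intervals.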
